A study of Mus musculus with 29 samples.

Results

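Integrins are adhesion receptors built of an α and a β subunit that let cells hold on to each other and to the matrix around them. Described here are 8 integrin subunit genes of leukocytes and endothelium, of 27827 genes listed in 29 mouse libraries. These were chosen by name and not by a measured value, though with earlier results of these data known. They are the αM, αX and αL chains Itgam, Itgax and Itgal, their shared β2 chain Itgb2, the β1 chain Itgb1, and its partner α chains Itga4, Itga6 and Itgav. All 8 were present in each of the young brain, aged brain and young blood tables, and each was followed across cell types and surgery groups as counts summed per library and cell type, given as CPM, which sets every library and type to the same total.

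Single cells were sequenced by Drop-seq, a method in which droplets join each cell with a bead that carries its barcode. The mice were C57BL/6J, with no transgene or deletion named, and had a transient middle cerebral artery occlusion (stroke) or sham surgery. The young mice were males of 8 to 10 weeks, with 4 brain libraries each for sham at day 2, stroke at day 2 and stroke at day 14, and 4, 4 and 3 blood libraries for the same groups. From mice aged 17 to 20 months came brain libraries only: 1 male and 1 female after sham surgery (day 2), 1 male and 2 females after stroke (day 2), and 1 female after stroke (day 14). A brain library pooled 4 to 5 hemispheres, which were digested with papain in the presence of transcription inhibitors and sorted into cells with high CD45, microglia with intermediate CD45, and endothelial cells without CD45 and with high Ly6c. A blood library pooled leukocytes of 2 mice after lysis of red cells. Replicates are therefore pools. Sham libraries exist for day 2 alone and serve as controls of both stroke times, so a difference at day 14 combines stroke with time since surgery.

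As background, the β2 chain pairs with αL to form LFA-1, with αM to form Mac-1 (complement receptor 3) and with αX to form p150,95 (complement receptor 4), receptors used by leukocytes only. LFA-1 and Mac-1 bind ICAM ligands on endothelium and arrest rolling leukocytes, Mac-1 and p150,95 also bind complement fragment iC3b, and β1 with α4 forms VLA-4, which binds VCAM-1 and fibronectin. The α6 chain with β1 or β4 binds laminin of the basement membrane, and αv pairs with several β chains to bind vitronectin, fibronectin and latent TGF-β. In the brain, αM is the CD11b by which microglia are often sorted, and αX is the CD11c of dendritic cells and of some microglia.

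All 8 genes lie on the forward strand in GENCODE M21 on mm10. The 3 partners of the β2 chain among these 8 genes share chromosome 7, with Itgal at chr7:127296260-127335138, Itgam at chr7:128062640-128118491 and Itgax at chr7:128129547-128150657. Between the end of Itgam and the start of Itgax lie 11055 bases, and between Itgal and Itgam 727501 bases. Itga6 (chr2:71745616-71858416), Itga4 (chr2:79255426-79333123) and Itgav (chr2:83724397-83806916) share chromosome 2. Itgb1 lies at chr8:128685654-128733200 and Itgb2 at chr10:77530252-77565708. The promoters of the adjacent genes Itgam and Itgax are shown because they are neighbours of which only Itgax was called in microglia after stroke, as given further on. Each line holds the 250 bases before the RefSeq start (GRCm38.p6, forward strand, 5′ to 3′), Itgam at chr7:128062390-128062639 and Itgax at chr7:128129300-128129549, with each GAGGAA or its reverse complement TTCCTC in capitals, a core that PU.1, a transcription factor of myeloid cells, can bind.
Itgam: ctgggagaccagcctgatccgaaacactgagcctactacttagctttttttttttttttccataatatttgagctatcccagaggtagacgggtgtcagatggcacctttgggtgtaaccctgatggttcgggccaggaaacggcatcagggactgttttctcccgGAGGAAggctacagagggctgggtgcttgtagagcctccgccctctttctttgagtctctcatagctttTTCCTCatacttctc
Itgax: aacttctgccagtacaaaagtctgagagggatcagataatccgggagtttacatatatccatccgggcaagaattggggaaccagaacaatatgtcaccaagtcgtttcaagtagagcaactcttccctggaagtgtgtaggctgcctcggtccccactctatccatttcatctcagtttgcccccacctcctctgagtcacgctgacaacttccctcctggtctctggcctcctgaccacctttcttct

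The Itgam window held the motif 2 times, starting 84 and 15 bases before the start, and the Itgax window held it 0 times. Of 32851 promoters of the same length, 7639 (23.3%) held the motif on either strand. RefSeq promoters were matched for 5 of the 8 genes, and of the others Itgav held 2 matches, Itgb1 held 1 and Itga4 held 0. A match describes the letters in the window and nothing about binding in these cells.

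Libraries held 1143 to 6328 cells and 819438 to 5855047 counts, and no pair of the 406 library pairs shared more than 7 cell barcodes. Cell types are the coarser of the authors' deposited annotations, and a library entered a type with at least 20 of its cells. No doublet caller was run. Leaving out the 5% of cells with the most counts moved no count of members called by over 1.5 times. With so few members called this shows little about doublets, and over all genes the same step lowered the calls in endothelium, as given further on. The highest of the marker lists matched the type for microglia, endothelial cells, neutrophils, granulocytes, monocytes and monocyte-derived cells, while border-associated macrophages and blood dendritic cells had the monocyte or macrophage list highest. In brain dendritic, T and NK cells and in blood T cells the list of general leukocyte genes was highest. The brain libraries fell into 2 sets by the highest share of mitochondrial counts in any cell. It was under 7% (3.51% to 6.44%) in young sham replicate 1 and in replicates 1 and 2 of both young stroke groups. In the others it was 15.6% to 20.1%. The labels do not say what this split is. Within-set values are given for the members called in the young brain groups, and were not computed for genes of the lists. In microglia, stroke day 2 replicate 3 stood apart with 58 cells and summed microglial markers of 817 CPM, against up to 12466 CPM in that group and 14610 to 21335 CPM in sham.

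The 4 genes of the β2 receptors differed in the myeloid and lymphoid types that held them, and all were near 0 in endothelium. Itgam, the αM chain, had its highest means in brain granulocytes (614 ± 252 CPM, SD, n = 4, in sham) and microglia (593 ± 218), followed by monocyte-derived cells (311). In sham blood it was highest in neutrophils (392 ± 71.3) and in the 2 libraries of eosinophils and basophils (389), then in monocytes (281), and lower in dendritic cells (144, 2 libraries) and NK cells (95.1). T cells held 3.09 CPM. Granulocytes and microglia overlapped in their library values, so their order is not resolved.

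Itgb2, the β2 chain, stood at 351 ± 156 CPM in brain granulocytes of sham mice, and at 428, 420 and 359 CPM in blood NK cells, neutrophils and monocytes. The same gene had 4.68, 1.95 and 1.97 CPM in endothelial cells of the sham, day 2 and day 14 groups, where 3, 3 and 2 counts lay behind the value. Itgal had 0 counts in endothelium in all 3 groups, which allows up to 3.47, 1.46 and 2.66 CPM (3 counts, counting error only), and Itgax and Itgam had at most 1 count in any group. These are the levels in a cell type that should lack the β2 receptors, from the same brain libraries. Free RNA was not measured.

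Itgax, the αX chain, was highest in brain dendritic cells at sham (90.4 ± 51.8 CPM), day 2 (105 ± 34.1) and day 14 (114 ± 46.8). In blood, NK cells held 89.3 ± 56.7 CPM in sham and dendritic cells 99.3 CPM over the 2 libraries with enough of them. Itgal, the αL chain, had its highest brain means in monocyte-derived cells (138) and granulocytes (107 ± 142) of sham mice, and stood at 81.4, 73.7 and 71.7 CPM in NK cells, monocytes and neutrophils of sham blood. Most neighbouring types in these orders overlapped.

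The β1 chain was high in some leukocytes as well as in endothelium, and its partners differed in the types that held them. Itgb1 was high in blood NK cells (1154, 1332 and 1046 CPM in sham, day 2 and day 14), brain mural cells (1160 ± 447, 2 libraries), brain T cells (741) and endothelium (694 ± 75.9 in sham), and low in blood neutrophils (22.1, 18.7 and 41.4). Among the young sham groups, Itga4 was highest in T cells of the brain (310 ± 184) and NK cells of the blood (676), with 6 counts in all sham microglia. Within the brain, Itga6 was highest in endothelium (296 ± 26.5 CPM in sham) and next in microglia (203 ± 38.4), and these did not overlap in sham or at day 14 but did at day 2. Itgav stood at 56.6 ± 41.4 CPM in sham microglia, and at most at 16.9 CPM in blood monocytes. Levels were compared within a gene only, since counts are not corrected for transcript length.

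**Figure D1:**
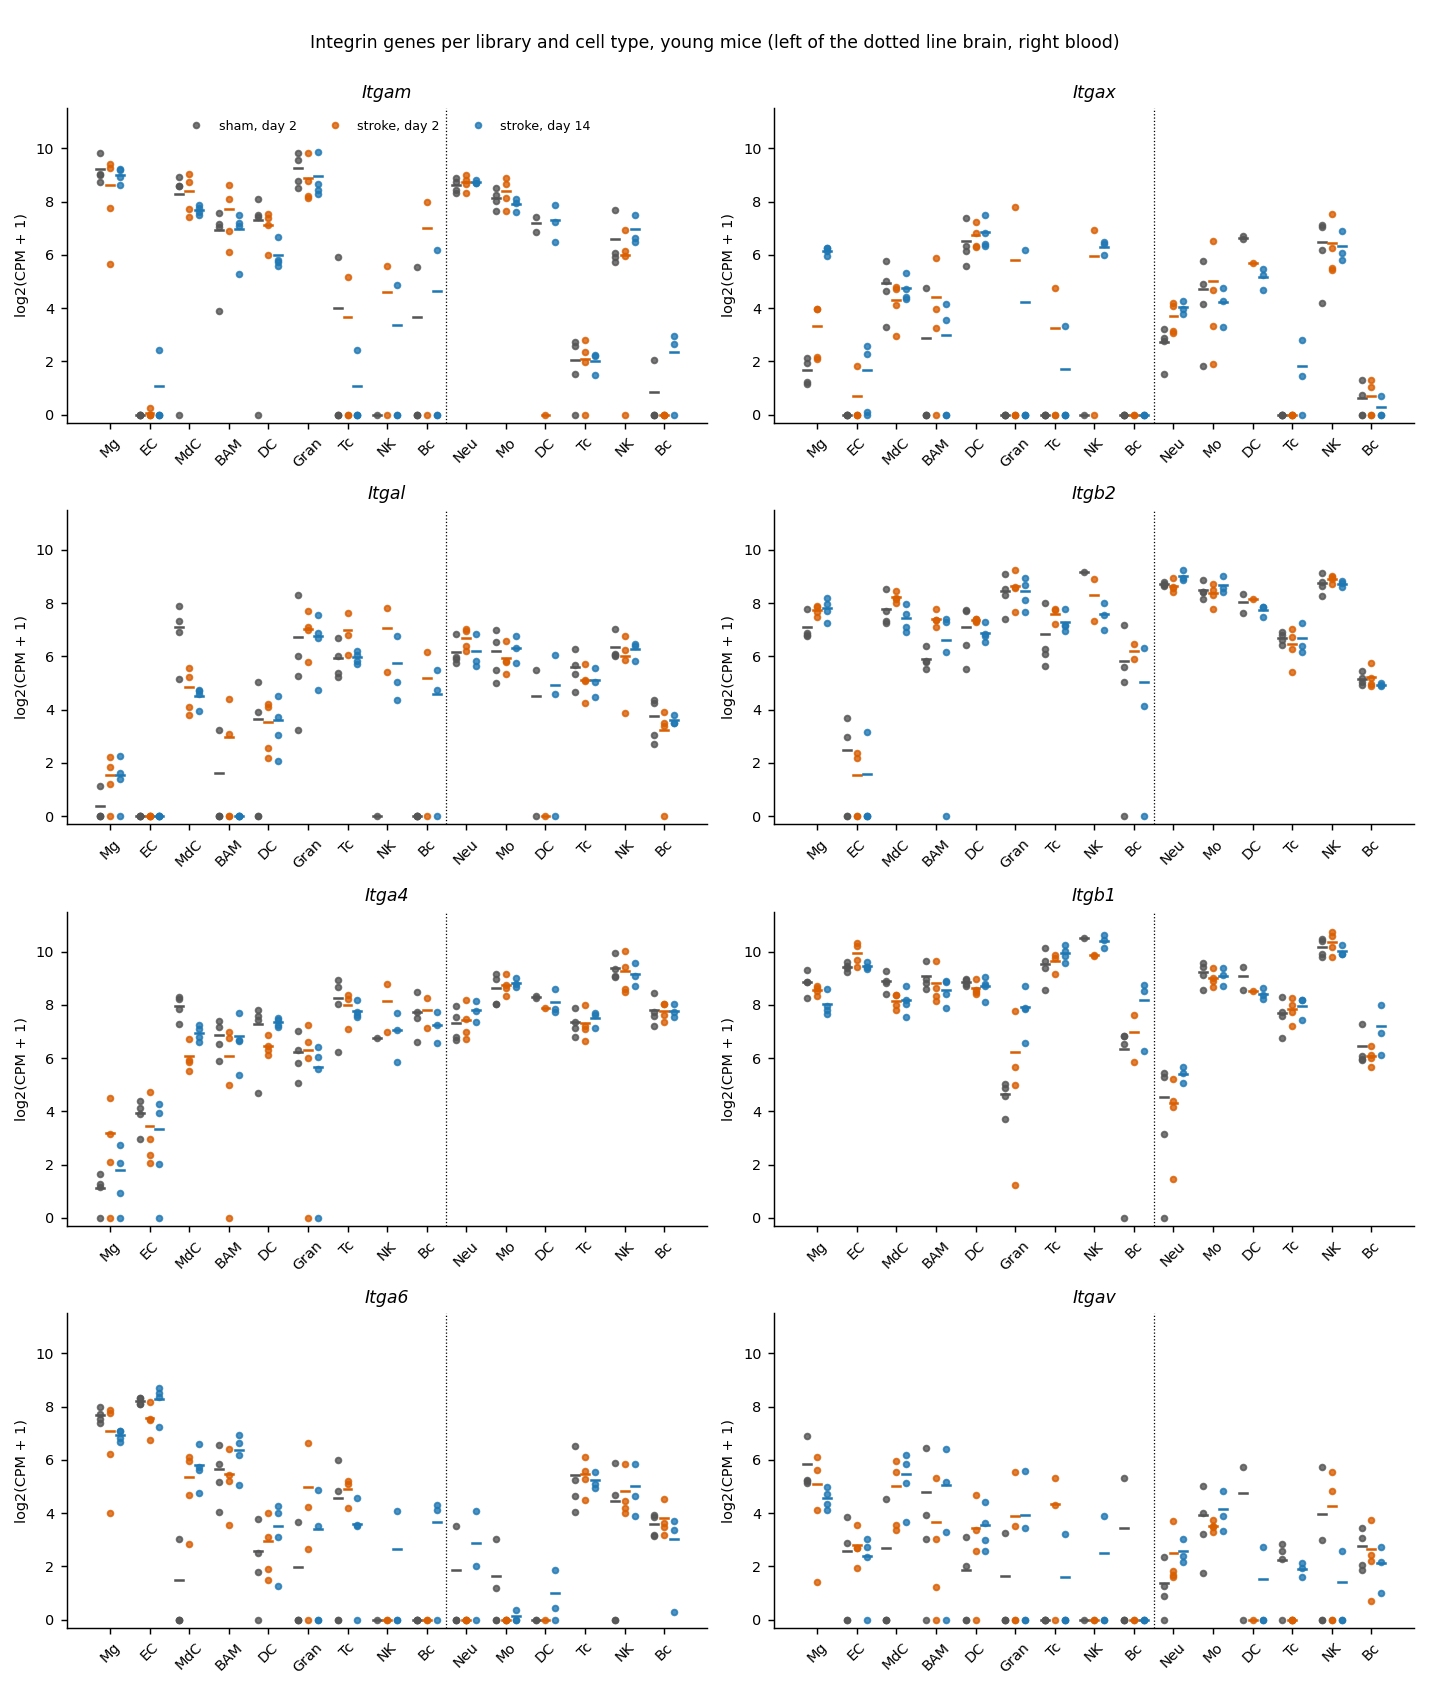
Levels of the 8 integrin genes in each young library, 1 panel per gene, as log2(CPM + 1) on the vertical axis against cell type (brain types at left, blood types at right). Points are libraries with at least 20 cells of the type, coloured by sham day 2, stroke day 2 and stroke day 14, and lines mark the log2 of the group's mean CPM + 1. The β2 receptor genes were near 0 in endothelium, while Itgb1 and Itga6 were high there.

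The genes whose levels over cell types were most like each member were found by Pearson correlation of log2(mean CPM + 1) over 41 points, each a young cell type in 1 group, among 12222 genes. Points from 1 group share libraries and depth, so the coefficients are descriptions. For Itgam they were the Fc receptor gene Fcgr3 (r = 0.93) and the signalling adaptors Tyrobp (0.92) and Fcer1g (0.87). For Itgb2 they were the P-selectin ligand Selplg (0.91), Glipr1 (0.91) and Bin2 (0.89), and for Itgal they were Emb (0.84), Ipcef1 (0.82) and Diaph1 (0.81). For Itgax the highest were Efhd2 (0.76), Capzb (0.70) and Nptn (0.70). Itga4 was most like Arhgap15 (0.89), Cd47 (0.86) and Cytip (0.83), Itga6 most like Arhgef12 (0.75), Tfpi (0.75) and Maged2 (0.74), Itgb1 most like Emc4 (0.86), Uqcrb (0.83) and Uqcc2 (0.83), and Itgav most like Cmklr1 (0.73), Ctsa (0.72) and Lamp1 (0.72). Between members, Itgb2 correlated with Itgam at 0.76, with Itgal at 0.71 and with Itgax at 0.59. Itgb1 correlated with Itga4 at 0.007, with Itgav at 0.17 and with Itga6 at 0.37, and Itga4 with Itga6 at -0.63.

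In microglia, the resident macrophages of the brain, Itgax rose after stroke and rose further by day 14, and Itgb2 was higher at day 14, while Itgam, Itga6, Itgb1 and Itgav did not pass the test. Replicates 1 to 4 had 2.87, 1.22, 1.36 and 3.30 CPM of Itgax in sham, 14.6, 14.4, 3.27 and 3.52 at stroke day 2, and 76.1, 74.6, 70.1 and 60.6 at stroke day 14. All 4 day 14 libraries lay above all others, and 1 day 2 library lay within the sham range. The group means were 2.19 ± 1.05, 8.94 ± 6.41 and 70.3 ± 6.99 CPM (SD, n = 4).

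Changes were tested with the quasi-likelihood test of edgeR on the summed counts, with TMM scaling and Benjamini-Hochberg adjustment of the p-values over all genes tested. A gene is called, and said to rise or fall, at an adjusted p under 0.05. Itgax rose by a log2 fold change of 2.30 ± 0.51 (SE) at day 2 (adjusted p = 0.00499) and 5.44 ± 0.45 at day 14 (adjusted p = 3.8e-06), and day 14 exceeded day 2 by 3.14 ± 0.42 (adjusted p = 0.00101). All 3 calls held under every alternative in which Itgax was tested. It did not pass the filter on low counts at day 2 with only the compared groups in the fit, and without day 2 replicate 3 the day 2 value was 2.33 (adjusted p = 0.00610). Of the 8 members 6 had enough counts for this test, and 2 were called at day 2, against 31.4% of the 10145 genes tested, 2 at day 14 (15.2% of all) and 1 between the stroke times (6.93%). The median log2 fold change of the 6 was -0.19 at day 2, against -0.05 over all genes, and -0.01 at day 14, against -0.04.

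Within the set of libraries with the low mitochondrial share, Itgax stood at 14.5 CPM at day 2 against 2.87 in the single sham library, and at 75.3 at day 14. Within the other set it stood at 3.39 at day 2 against 1.96 in sham, where the libraries overlapped, and at 65.3 at day 14. The rise at day 14 was thus seen in both sets (log2 ratios of 4.72 and 5.06), and the rise at day 2 was 2.34 in one and 0.79 in the other. The summed level of 6 monocyte or macrophage markers moved with it, from 235 to 397 CPM in sham microglia to 520 to 4277 at day 2 and 2130 to 3097 at day 14, with none of the 6 at 0 in every library of a group, and their part in the result was not tested. In the same day 14 libraries Itgax stood at 26.1 CPM in monocyte-derived cells, below the microglia, at 114 ± 46.8 in dendritic cells and at 2.19 ± 2.52 in endothelium. Summed dendritic markers in microglia were lower after stroke, at 2734 to 3374 CPM in sham, 178 to 1238 at day 2 and 696 to 1460 at day 14, a list of 6 that includes Siglech, which microglia also express, and whose marker Xcr1 was at 0 in every stroke library.

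The finer deposited annotation showed where the message lay. The microglial subtype Mg3 made up 0.855% of sham, 4.94% of day 2 and 66.1% of day 14 microglia (59.3% to 76.4% per day 14 library), and had 77.5 ± 5.25 CPM of Itgax at day 14. Mg7, with 4.95% of day 14 cells, had 97.5 ± 25.9 CPM. Mg1, with 53.6% of sham cells and 6.21% of day 14 cells, had 1.90 ± 1.37 CPM in sham, and Mg2, with 37.2% of sham cells, had 0.854 ± 1.16. The main day 2 subtypes Mg4 (38.4%) and Mg5 (33.8%) had 8.76 ± 5.00 and 9.59 ± 7.40 CPM. Subtypes were defined from the expression of these cells, so the differences between them are a description.

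Itgb2, whose chain pairs with αM, αX and αL, had 217, 107, 118 and 110 CPM in sham microglia, 231, 177, 240 and 205 at day 2, and 249, 207, 296 and 153 at day 14. Sham replicate 1 was as high as the stroke libraries, and the other 3 sham libraries lay below them all. At day 14 Itgb2 was higher by 1.20 ± 0.26 on the log2 scale (edgeR, adjusted p = 0.00777). At day 2 it was higher by 0.75 ± 0.27 (adjusted p = 0.0471), a call lost in 13 of 17 alternatives, among them DESeq2 (adjusted p = 0.178) and the fit without day 2 replicate 3 (0.77, adjusted p = 0.0613). TMM scaling mattered for these values, since the median of all genes at day 14 moved from -0.04 to -0.49 without it, where Itgb2 was higher by 0.72 (adjusted p = 0.0492) and 0.60 at day 2 (adjusted p = 0.107). Within the set with the higher mitochondrial share Itgb2 stood at 112 CPM in sham, 222 at day 2 and 224 at day 14. Within the other set it stood at 217, 204 and 228, so the difference was not seen in the set with 1 sham library.

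Itgam, the CD11b chain, had 913, 420, 515 and 526 CPM in sham microglia, 617, 678, 49.5 and 216 at day 2, and 584, 595, 393 and 488 at day 14. The groups overlapped, and the lowest value was that of day 2 replicate 3, the library with few microglial markers. Its log2 fold changes were -0.32 at day 2 and 0.27 at day 14, and neither passed. Itgax and Itgam, adjacent on the chromosome, thus stood at 70.3 ± 6.99 and 515 ± 94.9 CPM at day 14, with only Itgax called against sham. Whether their changes differ from each other was not tested.

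Itga6, the laminin-binding α6 chain, had 185, 165, 208 and 254 CPM in sham microglia, 231, 216, 15.1 and 73.3 at day 2, and 134, 135, 100 and 111 at day 14. All day 14 libraries lay below all sham libraries in CPM, yet the change was -0.29 with TMM scaling and was not called. Itgb1 had 306, 465, 462 and 627 CPM in sham, 421, 396, 323 and 366 at day 2, and 202, 221, 245 and 385 at day 14, with log2 fold changes of -0.14 and -0.38 that were not called. Without TMM its day 14 value was -0.81 (adjusted p = 0.0267), beside a median of -0.49 over all genes. Itgav, the αv chain, had 119, 34.4, 37.1 and 36.3 CPM in sham and 25.5, 30.2, 16.2 and 19.1 at day 14, where all 4 libraries lay below all sham libraries and the log2 fold change of -0.84 was not called (adjusted p = 0.0179 with the mitochondrial set as a term).

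Itga4 and Itgal had too few counts in microglia for a test. Over the 4 libraries of each group, sham, day 2 and day 14, Itga4 had 6, 9 and 17 counts and Itgal 2, 4 and 13. The ratio of Itgal at day 14 to sham was 5.82 with a 95% counting interval of 1.32 to 53.1, which covers counting error only.

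**Figure D2:**
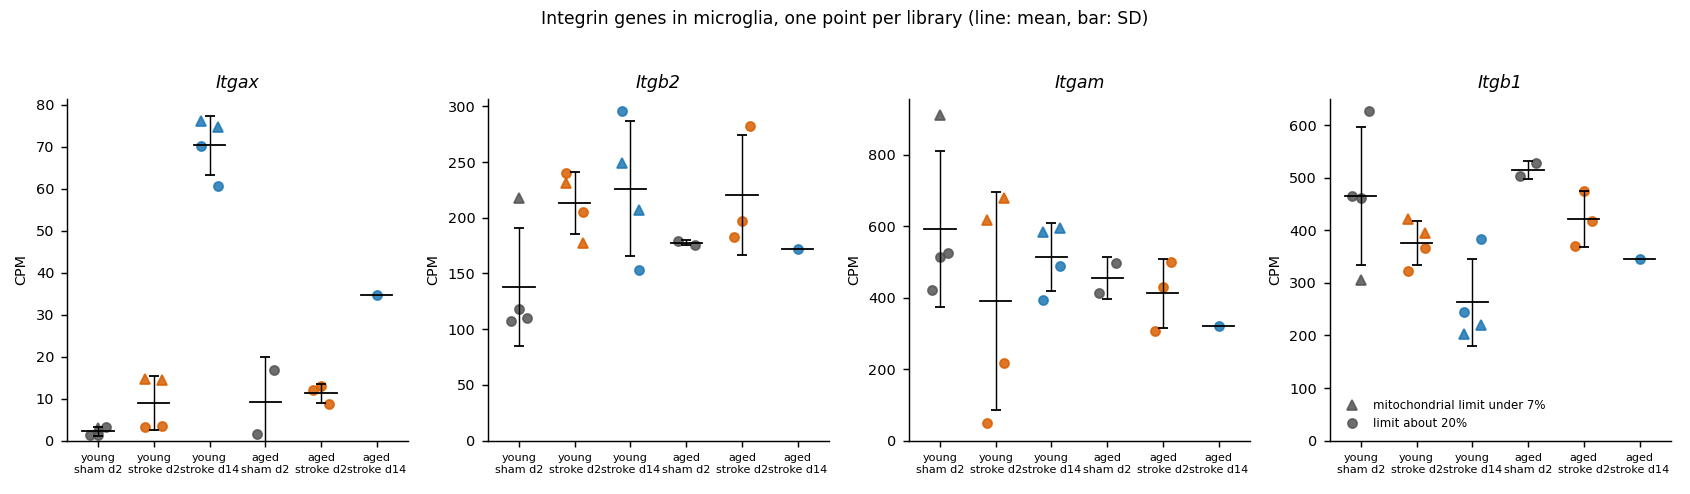
Itgax, Itgb2, Itgam and Itgb1 in microglia, as CPM per library on the vertical axis (from 0) for the 3 young and 3 aged groups. Triangles are libraries whose highest mitochondrial share in any cell (called limit in the legend) was under 7%, and circles are the other libraries. Lines mark group means and bars the SD. Itgax stood at 60.6 to 76.1 CPM in the young day 14 libraries and at 1.22 to 3.30 in young sham.

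Monocyte-derived cells are blood monocytes and their progeny that enter the brain, and few are found there after sham surgery. Sham libraries held 43 to 99 of them, day 2 libraries 1468 to 2180 and day 14 libraries 489 to 857. Itga4 and Itgal, the α chains of VLA-4 and LFA-1, were lower after stroke, and no member was called higher. Replicates 1 to 4 had 301, 230, 311 and 153 CPM of Itga4 in sham, 104, 60.6, 56.7 and 44.6 at day 2, and 150, 95.6, 109 and 137 at day 14. All stroke libraries at both days lay below all sham libraries.

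Itga4 fell by 1.56 ± 0.31 on the log2 scale at day 2 (edgeR, adjusted p = 0.00691), which held in every alternative but the fit without sham replicate 3 (adjusted p = 0.0539). The change at day 14 was -0.69 and was not called (adjusted p = 0.254). Of 8 members, all tested, 2 were called at day 2, against 6.71% of 8080 genes, 1 at day 14 (5.15%) and 0 between the stroke times (1.79%, 145 genes). Their median was 0.21 at day 2 against 0.29 over all genes and -0.13 at day 14 against 0.28, and without TMM the medians of all genes were -0.13 and -0.11. Day 14 exceeded day 2 in Itga4 by 0.87 ± 0.27 (adjusted p = 0.151), and the test with the replicate number as a block gave 0.88 (adjusted p = 0.0295), the mitochondrial set as a term 0.89 (adjusted p = 0.0473) and DESeq2 0.94 (adjusted p = 0.0200). Of the 4 day 14 libraries 3 lay above all day 2 libraries. Within the mitochondrial sets Itga4 stood at 50.7 CPM at day 2 against 231 in sham and at 82.2 against 301.

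Itgal had 239, 34.4, 119 and 159 CPM in sham, 46.1, 36.3, 16.3 and 12.8 at day 2, and 23.2, 24.9, 14.4 and 26.1 at day 14. Sham replicate 2 lay among the day 2 libraries, and all day 14 libraries lay below all sham libraries. Itgal fell by 1.96 ± 0.50 at day 2 (edgeR, adjusted p = 0.0293) and by 2.30 ± 0.52 at day 14 (adjusted p = 0.0173). The day 2 call was lost without any 1 of 5 single libraries (adjusted p up to 0.253), and the day 14 call without sham replicate 1 (adjusted p = 0.195). With only the compared groups in the fit it was not tested at day 14. Within the mitochondrial sets the log2 ratios at day 2 were -2.84 and -2.54 and at day 14 -2.36 and -3.31.

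Markers of other cells moved with these groups. Summed neutrophil markers stood at 276 to 3698 CPM in sham monocyte-derived cells, 180 to 351 at day 2 and 74.6 to 171 at day 14, and those of border-associated macrophages at 1073 to 1484, 691 to 1311 and 403 to 579. Each list has 6 genes, of which Ly6g in the first and Cd163 and Lyve1 in the second were at 0 in every sham library. Their part in the fall of Itga4 and Itgal was not tested. The subtype mixture moved as well, since MdC3 made up 76.4% of the sham cells, 14.7% at day 2 and 13.1% at day 14, MdC1 made up 31.4% at day 2 and MdC6 34.0% at day 14. Within MdC3 Itga4 stood at 315 ± 105, 189 ± 99.6 and 234 ± 52.9 CPM and Itgal at 190 ± 120, 69.6 ± 48.7 and 110 ± 66.4 in sham, day 2 and day 14, while MdC1 at day 2 had 34.8 ± 11.9 CPM of Itga4 and 15.7 of Itgal.

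Itga6 and Itgav had 1 and 2 counts in all sham monocyte-derived cells together, where 3 counts equal 13.1 CPM, so the depth of the sham cells limits both comparisons. Itga6 had 7.20, 0, 0 and 0 CPM in sham, 68.1, 61.7, 24.9 and 6.09 at day 2 and 94.7, 52.4, 48.2 and 26.0 at day 14. All day 14 libraries lay above all sham libraries, and the log2 fold change of 4.07 ± 1.22 had an adjusted p of 0.0682 by edgeR (0.00211 with the replicate block, 0.0216 with the mitochondrial set as a term). With 270 counts at day 14 and 1 in sham, the ratio was 15.1 with a 95% counting interval of 2.70 to 601. At day 2, with 371 counts, it was 9.17 (1.64 to 363), and the log2 fold change of 3.55 had an adjusted p of 0.112 (0.0153 with the block). Replicate numbers of stroke and sham libraries did not deviate together in these cells (correlations -0.08 to 0.10 for day 14 and -0.07 to 0.05 for day 2). The block values against sham, here and for Itgav, thus rest on a pairing that was not seen.

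Itgav had 22.1, 0, 0 and 0 CPM in sham, 61.7, 45.6, 10.7 and 9.28 at day 2, and 72.0, 55.8, 33.7 and 11.6 at day 14. Its log2 fold changes of 2.28 and 2.77 were not called (adjusted p at day 14 = 0.0151 with the replicate block, edgeR), and the ratio of day 14 to sham was 5.81 (1.59 to 48.3) on 207 and 2 counts. The 6 microglial markers summed in the monocyte-derived cells to 0 to 436 CPM in sham, 270 to 655 at day 2 and 289 to 1807 at day 14, with none at 0 in every library of a group, and microglia express both genes. Their part in these values was not tested. By subtype, Itga6 stood at 84.5 ± 39.4 CPM in MdC6 at day 14, and at 1.52, 8.77 and 29.9 in MdC3 across the groups.

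The β chains and the other α chains of these cells did not pass the test. Itgb2 had 372, 159, 206 and 151 CPM in sham, 351, 259, 286 and 291 at day 2, and 192, 136, 251 and 119 at day 14. The day 14 libraries all lay below the day 2 libraries, with a log2 difference of -0.78 that was not called (adjusted p = 0.259). Itgam had 380, 485, 378 and 0 CPM in sham, 520, 428, 170 and 209 at day 2 and 236, 217, 179 and 196 at day 14. Itgb1 ranged from 342 to 625 in sham, 223 to 332 at day 2 and 185 to 420 at day 14, and Itgax from 8.80 to 54.0, 6.81 to 26.8 and 19.4 to 39.2, with no call.

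**Figure D3:**
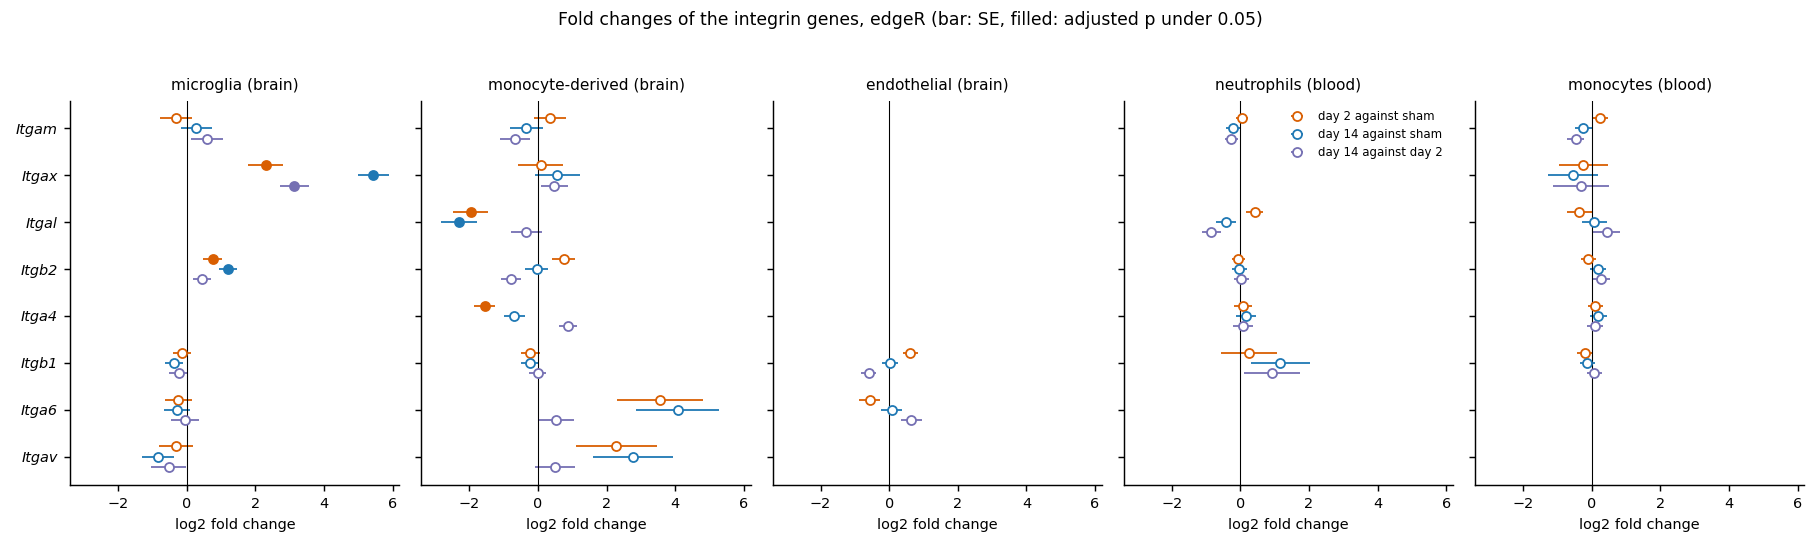
Log2 fold changes of the tested members against sham at day 2 and day 14 and between the stroke times, with the SE as bars, in 1 panel each for microglia, monocyte-derived cells, endothelial cells, blood neutrophils and blood monocytes. Filled points passed an adjusted p under 0.05 by edgeR. Itgax in microglia had the highest called value, 5.44 at day 14, and no member was filled in endothelium or blood.

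Endothelial cells line the vessels that leukocytes cross, and their integrins hold them to the basement membrane. Only Itgb1 and Itga6 of the 8 members had enough counts for a test there. Itgb1 had 708, 606, 673 and 788 CPM in sham, 1196, 1285, 822 and 683 at day 2, and 688, 693, 654 and 774 at day 14. Of the day 2 libraries 3 lay above all sham libraries and replicate 4 lay among them. The day 2 change was 0.62 ± 0.23 on the log2 scale and was not called (edgeR, adjusted p = 0.0813), though DESeq2 gave 0.63 (adjusted p = 0.0499) and the fit without day 2 replicate 4 gave 0.78 (adjusted p = 0.0422). The day 14 change was 0.02.

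Itga6 had 271, 319, 274 and 318 CPM in sham, 289, 178, 185 and 106 at day 2, and 411, 328, 148 and 365 at day 14. Its day 2 libraries reached lower, but the groups overlapped and the log2 fold changes of -0.57 at day 2 (edgeR, adjusted p = 0.224) and 0.07 at day 14 were not called. None of the 2 was called at day 2, against 13.3% of 5833 genes, nor between the stroke times (11.2%). At day 14 against sham no gene of any kind was called (0%, 356 genes at an unadjusted p under 0.05, and 10 called by DESeq2).

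The subtypes of endothelium differed in the β1 and α6 chains at day 2, given as a description. The subtype EC2 made up 3.04% of sham, 40.8% of day 2 (32.7% to 59.2% per library) and 2.92% of day 14 endothelial cells, and EC1 58.1%, 24.7% and 40.8%. In EC2 at day 2 Itgb1 stood at 1082 ± 268 CPM and Itga6 at 153 ± 69.7, while in EC1 of the same group they stood at 761 and 252 ± 64.5. Itga4 had 12, 21 and 11 counts in sham, day 2 and day 14, and Itgav 4, 12 and 4, too few for a test. Summed endothelial markers ranged from 13282 to 25487 CPM over the young libraries.

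In granulocytes of the brain, the neutrophils and related cells, Itgb1 was the only member called. It had 32.1, 12.01, 28.7 and 23.2 CPM in sham, 49.8, 215, 1.34 and 30.9 at day 2, and 93.7, 414, 228 and 236 at day 14. All day 14 libraries lay above all sham libraries, on 37 counts against 6. It rose by 2.90 ± 0.85 (edgeR, adjusted p = 0.0173), in a comparison that called 26.1% of 994 genes, and the call was lost without sham replicate 2, sham replicate 4 or day 14 replicate 3 (adjusted p = 0.0742, 0.0515 and 0.0534). Within the mitochondrial sets Itgb1 stood at 254 CPM at day 14 against 32.1 in sham and at 232 against 21.3.

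The makeup of the granulocytes moved with it. The 6 neutrophil markers summed to 221633 to 292204 CPM in sham, 110439 to 203368 at day 2 and 51841 to 66058 at day 14, where Ly6g was at 0 in every library, and subtype Gran1 went from 82.6% of sham to 4.41% of day 14 cells. The part of this in the rise of Itgb1 was not tested. Itgam and Itgb2, the chains of Mac-1, had log2 fold changes of -0.67 and -0.05 at day 2 and -0.68 and -0.39 at day 14, with no call, in comparisons that called 8.35% of genes at day 2 and 4.23% between the stroke times.

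No member was called in the other brain types tested, and brain NK cells had too few libraries for a test between the groups. In border-associated macrophages, which sit in the meninges and around vessels, Itgb2 had 82.8, 54.9, 45.3 and 55.5 CPM in sham and 217, 163, 136 and 163 at day 2. The groups did not overlap, and the log2 fold change of 1.50 ± 0.47 was not called (edgeR, adjusted p = 0.0883, beside 2.67% of genes called), but was with only the compared groups in the fit (1.43, adjusted p = 0.0413). The comparisons at day 14 against sham and against day 2 called 0.0762% and 0.838% of 1313 genes in these macrophages. In dendritic cells 5 members were tested and none was called, against 1.01% of genes at day 2, 1.53% at day 14 and 0.893% between the stroke times. Their Itga4 stood at 69 to 115 CPM at day 2 and 141 to 182 at day 14 without overlap, a difference of 0.89 ± 0.35 that was not called (adjusted p = 0.31). In brain T cells 3 members were tested with no call, where 0%, 0.0954% and 0% of 1048 genes were called at day 2, at day 14 and between the stroke times, and in brain B cells, compared only at day 14 against sham, none had enough counts.

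In the blood no member was called by edgeR in neutrophils, monocytes, T, NK or B cells in any of the 3 comparisons, while dendritic cells and the rarer types had too few libraries for a test. In T cells and NK cells 0% of all genes were called in each of the 3 comparisons, with 102 to 162 and 23 to 38 genes at an unadjusted p under 0.05, and in B cells 0% at day 2 and 0.0114% in the other 2. Neutrophils, phagocytes that are early to enter injured tissue, had 425, 476, 348 and 321 CPM of Itgam in sham, 318, 512, 451 and 406 at stroke day 2, and 415, 448 and 409 at day 14. Itgb2 had 442, 409, 426 and 403 CPM in sham, 387, 384, 341 and 498 at day 2, and 468, 495 and 611 at day 14. Its day 14 libraries lay above the sham libraries in CPM, but with TMM scaling the log2 fold change was -0.03 ± 0.21 (edgeR, adjusted p = 0.967). Without TMM the median of all genes in this comparison was 0.36, against 0.02 with it.

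Itgal in neutrophils had 62.5, 112, 59.6 and 52.4 CPM in sham, 72.7, 125, 129 and 83.0 at day 2, and 56.4, 48.9 and 113 at day 14. The groups overlapped, and day 14 differed from day 2 by -0.85 ± 0.29 (edgeR, adjusted p = 0.112, and -0.95, adjusted p = 0.0466, without the filter on low counts). Itga4 had 102 to 248, 104 to 287 and 164 to 284 CPM over the 3 groups, and Itgb1 0 to 42.3, 1.78 to 36.1 and 32.3 to 49.7, with overlap. Itgax stood at 1.86 to 8.19, 7.29 to 17.5 and 12.6 to 18.3 CPM and was not tested by the filter on low counts. Of 4944 genes 0% were called at day 2 (209 at an unadjusted p under 0.05), 5.99% at day 14 and 4.69% between the stroke times, with 5 members tested.

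Blood monocytes, from which the monocyte-derived cells of the brain come, also showed no called member at any time. Itga4 had 496, 571, 262 and 263 CPM in sham, 393, 567, 428 and 325 at day 2, and 440, 410 and 512 at day 14. The groups overlapped. Itgb1 ranged from 374 to 765, 412 to 661 and 414 to 669, Itgb2 from 287 to 469, 217 to 425 and 338 to 515, Itgam from 199 to 360, 197 to 477 and 192 to 276, and Itgal from 31.5 to 126, 40.0 to 94.0 and 52.7 to 107. All log2 fold changes of the 6 tested members lay between -0.55 and 0.43, in comparisons that called 0% (189 genes at an unadjusted p under 0.05), 0.254% and 0.537% of 6706 genes.

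Subtypes of blood monocytes differed in αX and α4. In sham, Mo3 had 76.6 ± 50.8 CPM of Itgax and Mo1 and Mo2 had 1.34 and 2.84, and Itga4 stood at 682 ± 205 in Mo3, 260 ± 97.4 in Mo1 and 287 ± 143 in Mo2. These are values of deposited clusters, given with no test.

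Between the blood monocytes and the monocyte-derived cells of the brain at stroke day 2, Itga4 differed the most of the tested members. It stood at 428 ± 102 CPM in blood and 66.4 ± 25.9 in brain (SD, n = 4 and 4), and every brain library lay below every blood library. It was lower in brain by a log2 fold change of -2.40 ± 0.26 (edgeR, adjusted p = 3.7e-05), a call kept in 14 of 14 alternatives (-2.65 to -2.27). Of 7 tested members 1 was called, in a comparison that called 24.7% of 7540 genes, with a median of -0.02 over members and 0.04 over all genes (-0.20 without TMM).

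None of the other tested members was called. Itgb1, the partner of α4 in VLA-4, had 223 to 332 CPM in brain and 412 to 661 in blood, without overlap and with -0.57 ± 0.21 not called (edgeR, adjusted p = 0.064, and 0.0185 without TMM at -0.82). Itgav had 1.68 ± 0.62 (adjusted p = 0.0656, and 0.0375 by DESeq2 at 1.74), Itgal -0.81 (adjusted p = 0.152), and Itgam, Itgb2 and Itgax 0.26, 0.13 and -0.02. Itga6 had 371 counts in the brain cells and 0 in the blood monocytes, at least 21.3-fold higher against a floor of 3 counts over the blood group (1.88 CPM). The filter on low counts left it out of the test. It was called in 7 of 14 alternatives (edgeR, adjusted p up to 0.0155 in these), and the others did not test it or did not call it. In the same brain libraries Itga6 stood at 190 ± 75.6 CPM in endothelium, 134 ± 106 in microglia and 6.77 ± 6.00 in dendritic cells. Brain and blood libraries were made differently, so tissue and preparation cannot be told apart.

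**Figure D4:**
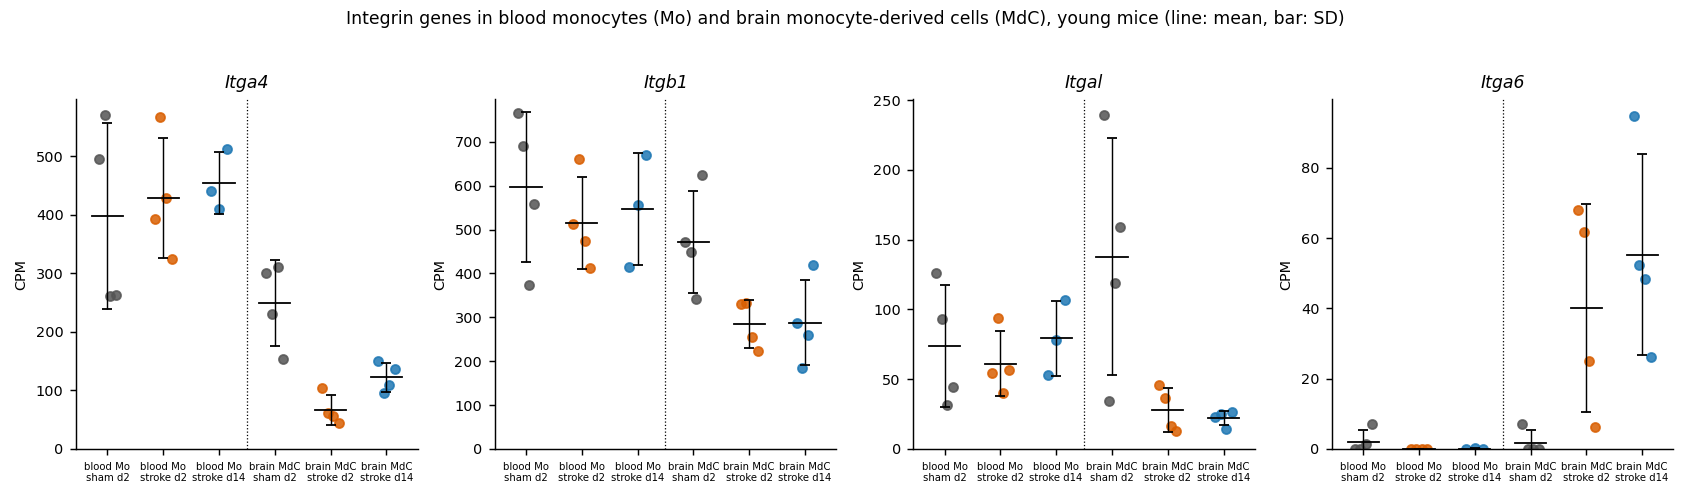
Itga4, Itgb1, Itgal and Itga6 in blood monocytes and brain monocyte-derived cells, as CPM per young library on the vertical axis for sham day 2, stroke day 2 and stroke day 14. Points are libraries, lines group means and bars the SD. Itga4 was at 262 to 571 CPM in sham and day 2 blood, 153 to 311 in sham brain and 44.6 to 104 in day 2 brain.

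Brain granulocytes and blood neutrophils at day 2 showed no called member among 4 tested, with log2 fold changes of 0.00 for Itgam, -0.06 for Itgb2, 0.16 for Itgal and -0.92 for Itga4 (edgeR, adjusted p = 0.263). The comparison called 9.16% of 1976 genes.

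T cells of the brain had more Itgb1 than T cells of the blood at stroke day 14. Means of the other groups, not tested, also differed, at 741 CPM in brain and 206 in blood after sham and 799 and 230 at stroke day 2. Here too, and in the NK and B cells below, tissue and preparation cannot be told apart. At day 14 the values per library were as follows. The brain libraries had 906, 769, 1052 and 1204 CPM and the blood libraries 287, 171 and 287, so all brain libraries lay above all blood libraries. The log2 fold change was 1.87 ± 0.23 (edgeR, adjusted p = 0.00172), kept in 13 of 13 alternatives (1.54 to 2.03), and 1 of 4 tested members was called against 8% of 3839 genes. Itgal, the LFA-1 α chain, had 65.4, 51.0, 73.2 and 56.5 CPM in brain and 21.2, 32.0 and 46.8 in blood, without overlap but not called (0.81 ± 0.31, adjusted p = 0.17). Itga4 differed by 0.15 and Itgb2 by 0.54, with no call. In the same brain libraries Itgb1 stood at 1364 CPM in NK cells and 702 in endothelium, and between 243 (granulocytes) and 418 (dendritic cells) in the other types described.

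NK cells, which kill infected or altered cells, had lower Itga4 and Itgam in the brain than in the blood at day 14. Itga4 had 57.2, 131 and 205 CPM in the 3 brain libraries with enough cells and 545, 420 and 771 in blood, with no overlap. It was lower in brain by a log2 fold change of -1.999 ± 0.38 (edgeR, adjusted p = 0.0164), a call lost without blood replicate 1 (adjusted p = 0.109) or 3 (0.136). Itgam had 0, 27.8 and 0 CPM in brain and 97.9, 88.9 and 182 in blood, on 3 and 48 counts, a ratio of blood to brain of 11.3 with a 95% counting interval of 3.63 to 56.5. Its log2 fold change of -3.22 ± 0.74 had an adjusted p of 0.0469 by edgeR, lost in 5 of 12 alternatives. All 5 were fits without 1 library, of which 6 were run, with an adjusted p up to 0.327. The call thus depends on nearly every library. In this comparison 3.23% of 2259 genes were called.

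The other NK genes did not pass. Itgb2 had 188, 257 and 125 CPM in brain and 430, 391 and 453 in blood, without overlap and not called (-0.94 ± 0.30, adjusted p = 0.141). Itgb1 had 1112, 1400 and 1579 CPM in brain and 1223, 951 and 966 in blood (0.54, adjusted p = 0.331). B cells showed no called member among 3 tested, against 0.274% of 6202 genes.

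**Figure D5:**
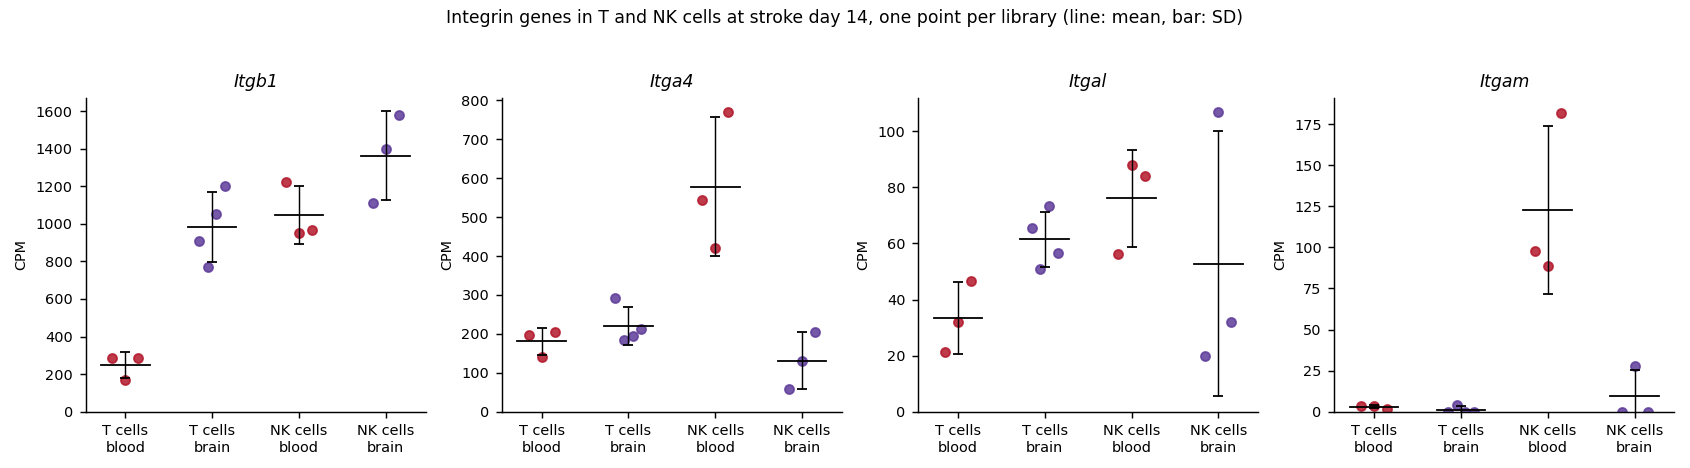
Itgb1, Itga4, Itgal and Itgam in T cells and NK cells of blood and brain at stroke day 14, as CPM per library on the vertical axis from 0. Points are libraries, lines means and bars the SD. Itgb1 in T cells stood at 769 to 1204 CPM in brain and 171 to 287 in blood, and Itga4 in NK cells at 57.2 to 205 in brain and 420 to 771 in blood.

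In aged mice no member was called at day 2 against sham, with 2.3% of 11096 genes called in microglia and 0.606% of 6604 in endothelium. Aged sham microglia had 1.57 (male) and 16.7 (female) CPM of Itgax, and aged stroke day 2 libraries 12.1, 12.9 and 8.68, within that range. The aged log2 fold change was 0.18 ± 0.80 (edgeR, adjusted p = 0.968), and it differed from the young one by -2.18 ± 1.03 (unadjusted p = 0.0506 by edgeR, adjusted p = 0.768). No gene was called for the interaction of age and stroke in microglia (0% of 11096, 623 at an unadjusted p under 0.05, and 1 called by DESeq2). Aged sham groups hold 1 male and 1 female library each, and young groups males only, so age and sex cannot be fully told apart.

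Itgb1 in aged endothelium had 520 and 664 CPM in sham and 778, 1443 and 1103 at day 2. The stroke libraries lay above the sham libraries, and the change of 0.94 ± 0.32 was not called (edgeR, adjusted p = 0.224). Its difference from the young change was 0.31 (adjusted p = 0.915), and no gene was called for that interaction (0% of 6604, 356 at an unadjusted p under 0.05). Monocyte-derived cells of aged and young mice at stroke day 2 showed no called gene (0% of 8167, 154 at an unadjusted p under 0.05, and 8 called by DESeq2), with all 8 members tested. Their Itga4 stood at 59.5, 41.9 and 42.1 CPM in the aged stroke day 2 libraries, beside 245 and 458 in aged sham and 254 in the single aged day 14 library.

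Genes that work with these integrins were read from 4 lists, of 18 other integrin subunits (17 of them listed in a table), 18 ligands, 22 adaptors and signalling genes, and 6 genes of selectins and rolling. Of the other subunits, the α9 chain Itga9 was the only one called in microglia, falling from 52.9 CPM in sham to 7.59 at day 2 (-2.30, adjusted p = 0.00119) and 5.24 at day 14 (-2.84, adjusted p = 0.000211, both edgeR). It was 1 of 4 tested, with list medians of -0.30 and -0.15 against -0.05 and -0.04 over all genes. Of 10 tested ligands 2 rose at day 2 and 0 fell (median -0.53), and 3 rose and 1 fell at day 14 (median 0.77), beside 31.4% and 15.2% of all genes called in either direction.

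The called microglial ligand with the highest level was Spp1, osteopontin, a matrix protein bound by αv and α4 integrins. It stood at 2.95 CPM in sham and 11623 at day 2 (11.88, adjusted p = 8.17e-06, edgeR). Fibronectin, Fn1, had 0 counts in sham microglia and 122 ± 118 CPM at day 2, and complement C3, whose fragment Mac-1 binds, had 0.35 CPM in sham, 0 counts at day 2 and 24.1 at day 14. Of 18 adaptors 2 rose and 2 fell at day 2, among them the kinase Syk (232 to 81.8 CPM, -1.26, adjusted p = 0.0062), and 1 rose and 0 fell at day 14. Over all genes 31.4% were called at day 2 and 15.2% at day 14. Of 2 selectin genes Selplg, the P-selectin ligand, fell (2296 CPM in sham, 780 at day 2 and 748 at day 14), and the hyaluronan receptor Cd44 rose (0.39, 22.7 and 17.7 CPM). Cd44, the kinase Fgr (the adaptor that rose at both times) and the junction gene Jam3 (the ligand that fell at day 14) lay outside the rule for naming list genes and were named after their values were seen.

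In monocyte-derived cells the ligand Spp1 rose from 104 CPM in sham to 7371 at day 2 and 14713 at day 14 (7.07 and 8.04 on the log2 scale, called by edgeR), as 1 of 8 ligands tested. Rasgrp2, an exchange factor that activates Rap1 and thereby integrins, fell from 150 to 30.0 and 23.5 CPM (-1.97, adjusted p = 0.00395, and -2.41, adjusted p = 0.00148). Of 20 adaptors tested, 1 rose and 1 fell at day 2 and 0 rose and 1 fell at day 14, with medians of 0.04 and -0.12 against 0.29 and 0.28 over all genes, of which 6.71% and 5.15% were called. No other integrin subunit of 5 tested and no selectin gene of 3 was called.

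Endothelium at day 2, where 13.3% of all genes were called, had P-selectin, Selp, at 45.7 CPM and 88.7 summed counts against 0 counts in sham (edgeR, adjusted p = 0.0203), 1 of 2 selectin genes tested. Its Rasgrp2 fell from 213 to 69.0 CPM (-1.49, adjusted p = 0.0102), the only one of 14 adaptors called, and 1 of 11 ligands rose, the basement membrane gene Nid1 (23.9 to 82.8 CPM, with overlap of libraries, named after its values were seen). In blood neutrophils, with 5.99% of genes called at day 14 against sham, Itgb7, a β chain that also pairs with α4, stood at 16.9 CPM in sham, 2.52 at day 2 and 71.6 at day 14, and rose at day 14 against sham (2.28, adjusted p = 0.0287) and day 2 (3.69, adjusted p = 0.00332). In blood monocytes, with 0.254% called, F11r, the junction protein JAM-A that LFA-1 binds, fell at day 14 to 3.37 CPM from 44.7 in sham (-3.62, adjusted p = 0.0133, edgeR), the only gene of the 4 lists called there against sham. It was also lower than the 56.2 CPM of day 2 (-4.04, adjusted p = 0.00253).

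Between brain monocyte-derived cells and blood monocytes at day 2, 9 of 20 tested adaptors were lower in brain and 1 was higher, with a median of -0.42 against 0.04 over all genes, of which 1007 of 7540 were higher and 856 lower. The lower ones included talin, Tln1, the protein that links integrin tails to actin (285 against 945 CPM, -1.42, adjusted p = 0.000763, edgeR), and Rasgrp2 (30.0 against 185 CPM, -2.30). The higher one was Parvb (32.8 against 0.858 CPM, 5.72, adjusted p = 5.06e-05, edgeR). Of 8 tested ligands 3 were higher in brain, among them Spp1 (12.65) and Thbs1 (4.11), and 2 were lower, Icam2 (-1.91) and C3 (-1.23). Of 4 other subunits, Itgb5, a β chain partner of αv, was higher in brain (117 against 15.2 CPM, 3.12, adjusted p = 8.14e-05) and Itga1 lower (-1.40).

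List genes also differed between brain and blood lymphocytes at day 14. T cells of the brain, where 8% of all genes were called, had more Icam1, the LFA-1 ligand (68.8 against 29.6 CPM, 1.19), 1 of 3 ligands tested. They also had more Cd44 (148 against 35.9 CPM, 1.92). Rasgrp2 was lower in brain (77.0 against 198 CPM, -1.48, adjusted p = 0.0079, edgeR), the only one of 12 adaptors called. In NK cells 3.23% of all genes were called. In NK cells the α2 chain Itga2 was lower in brain (99.2 against 381 CPM, -1.71, adjusted p = 0.0288, edgeR) and the ligand list's Tgfb1 higher (145 against 54.2 CPM, 1.59, adjusted p = 0.0498).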

How the data were processed

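Drop-seq of sorted brain cells and of blood leukocytes was analysed from the deposited tables of all 29 libraries. The authors deposited expected counts per gene and cell, which are not whole numbers, and the step that made them so is not given in the sources used here. The genome build mm10 and the tool Seurat are named in the submitters' processing notes. The authors' deposited metadata also give per cell the count of detected genes, the percent of mitochondrial counts and 2 levels of cell type.

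Expected counts were summed per library and coarser cell type and rounded, with at least 20 cells per library, and CPM were taken without TMM. Young comparisons needed 3 libraries per group and aged ones 2. Tests were two-sided quasi-likelihood tests of edgeR 4.0.16 (R 4.3.3, limma 3.58.1) with TMM and filterByExpr, adjusted by the Benjamini-Hochberg method over all genes tested, called at 0.05. A fit within young brain or within blood took all 3 groups of that tissue, a fit of brain against blood only the groups compared, and a fit of age the 4 day 2 brain groups. The script recovered known changes in counts simulated for a few of the fits with the spread that edgeR estimated and no batch effect. This checks the code, and not the power for members with few counts. The SE is the log2 fold change divided by the square root of F. With pools as replicates, p-values measure the spread between pools.

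Counting intervals are exact Poisson ones at 95% and floors are 3 counts. Both cover counting error only. Replicate numbers of young stroke day 2 and day 14 brain libraries deviated together in every pair for several types. These were monocyte-derived cells (correlations 0.27 to 0.76), endothelial cells (0.14 to 0.48), granulocytes, border-associated macrophages, dendritic and T cells. In both stroke groups replicates 1 and 2 belong to the set with the low mitochondrial share and 3 and 4 to the other. Replicate number and mitochondrial set thus cannot be fully told apart there. The main tests did not use the pairing by replicate number, also between the stroke times, and only the replicate block among the alternatives did. In microglia the correlations ran from 0.07 to 0.55. In blood and against sham the lowest were near or below 0. All 8 members are named in the main comparisons. Unless said otherwise, list genes were named from at most 4 called genes per list and comparison with the highest absolute fold change. These had at least 20 CPM in 1 group and no overlap of libraries, and not all of them are named. Of the list genes, 1 is not reported here. Likeness left out predicted genes and those of mitochondria, ribosomal proteins, haemoglobin and antigen receptors. Members and lists were chosen with earlier results of these data known. The alternatives were DESeq2 1.42.0, no TMM, no filter, values rounded up per cell, no cells in the top 5% by counts, at least 100 cells, the replicate block, only the compared groups, sex as a covariate and each library left out. The mitochondrial set and the library code as terms were chosen after seeing the data.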

Additional observations from a re-analysis of the deposited data

Results flagged for a closer look

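In groups of 4 libraries, 1 library stood far from the other 3 in 5 of 70 checked groups. The checked groups share libraries, so this share cannot be set against a rate due to chance. All of the brain cases were of young sham replicate 1. In sham microglia, replicate 1 had 119 CPM of Itgav, against 34.4 to 37.1 in the others, and 217 CPM of Itgb2, against 107 to 118. In sham monocyte-derived cells, replicate 1 had 7.20 CPM of Itga6 and 22.1 CPM of Itgav, and the other 3 had 0 of both. These values rest on 1 and 2 counts, and with the others at 0 any count in a single library would be marked. Replicate 1 is the only sham brain library with a highest mitochondrial share under 7%, and the part of that in these values was not tested. In sham blood neutrophils, replicate 2 had 112 CPM of Itgal, against 52.4 to 62.5.

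Signal was also seen in data that entered no comparison. The single aged library of stroke day 14 had 34.6 CPM of Itgax in microglia, on 46 counts over 1804 cells (95% Poisson interval 25.3 to 46.0), above the 1.57 and 16.7 CPM of the aged sham libraries. The deposited blood type UC, with 21 cells in sham replicate 1, had 2079 CPM of Itgb1 (20 counts, interval 1276 to 3227) and 3859 CPM of Itga6 (37 counts, 2722 to 5328), where 3 counts equal 313 CPM. Its highest marker list was that of platelets.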

How the results depend on the processing

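No called member changed the sign of its log2 fold change under an alternative that tested it. The numbers of members called that moved were these. In microglia at day 2 against sham it went from 2 to 1 under DESeq2, with at least 100 cells, with the mitochondrial set as a term, without TMM, without the filter, with only the compared groups and with values rounded up. At day 14 against sham it went from 2 to 3 with the mitochondrial set as a term (Itgav), without TMM (Itgb1) and with values rounded up (Itga4). In endothelium at day 2 it went from 0 to 1 under DESeq2. In monocyte-derived cells at day 2 it went from 2 to 3 with the replicate block (Itga6). At day 14 against sham there it went from 1 to 3 with the mitochondrial set as a term and with the replicate block, to 2 without the filter and with values rounded up, and to 0 with only the compared groups. Between the stroke times there it went from 0 to 1 under DESeq2, with the mitochondrial set and with the replicate block, which pairs day 2 with day 14. In the other brain types it went from 1 to 0 with at least 100 cells, and in blood neutrophils from 0 to 1 without the filter. In brain monocyte-derived cells against blood monocytes it went from 1 to 2 under DESeq2, without TMM and without the filter, and to 3 with values rounded up. In granulocytes against blood neutrophils it went from 0 to 2 without the filter. Among types with at least 3 libraries, the type with the highest mean was taken for 48 cases of a member and young group. It was the same type for 24 with at least 100 cells and for 40 with counts pooled over the libraries of a group. The block changed no other number of members called in a fit where it was run. With each library of the compared groups left out in turn, the counts ranged from 1 to 2 in microglia at day 2, 0 to 1 in endothelium at day 2 and between the stroke times, 0 to 2 in monocyte-derived cells at day 2 and 0 to 1 at day 14, 0 to 1 in the other brain types, 1 to 2 against blood monocytes and 0 to 2 in NK cells. Without stroke day 2 replicate 4, Itga6 was also called at day 14 against sham in monocyte-derived cells (4.05, adjusted p = 0.0209, edgeR). The cause of these moves was not tested.

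Over all genes, microglia at day 14 against sham had 1544 called (1071 higher, 473 lower) and 3425 without TMM (670 higher, 2755 lower), and blood neutrophils at day 14 had 108 higher and 188 lower, and 293 and 99 without TMM. Monocyte-derived cells between the stroke times had 145 called, 386 under DESeq2 and 469 with the replicate block. NK cells of brain against blood had 73, and 417 without the filter, and granulocytes against neutrophils had 181, 329 under DESeq2 and 696 without the filter. Endothelium at day 2 had 778, and 495 without the 5% of cells with the most counts, and between the stroke times 654, with 399 without those cells and 404 without the filter. Without TMM, microglia between the stroke times had 1157 called, against 703, and monocyte-derived cells at day 2 had 355, against 542. A fit with a deposited batch column was not run, since the metadata used here hold none. The low counts of Itga4 and Itgal in microglia and of all but Itgb1 and Itga6 in endothelium left them out of the tests.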
